A study of Rattus norvegicus with 9 samples.

Results

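The genes described here encode subunits of the transcription factor NF-κB, proteins that hold it back and nuclear IκB proteins. They were taken by gene symbol and are 10 of the 37203 symbols counted, namely the cytoplasmic inhibitors Nfkbia, Nfkbib and Nfkbie, the nuclear IκB proteins Nfkbiz, Nfkbid and Bcl3, the ubiquitin-editing enzyme Tnfaip3, and the subunit genes Nfkb1, Nfkb2 and Relb. All 10 passed the filter on low counts. RNA was sequenced from the superior mesenteric artery (SMA), the vessel that feeds most of the small intestine, of 8-week-old Sprague-Dawley rats in 3 groups of 3. One group was labelled normal, another was taken after 1 h of ischemia and the last after 4 h of ischemia. Ischemia was produced by bleeding through a catheter in the femoral artery under pentobarbital, so it was a whole-body blood loss and not a ligation of the SMA. Whether the normal rats had anaesthesia or a catheter is not given in the sources used here. The animals carried no transgene or deletion per the labels.

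NF-κB is a dimer of subunits that is held in the cytoplasm by IκB proteins. Signals from receptors for tumour necrosis factor, interleukin-1 and microbial products activate a kinase complex that marks the IκB protein for destruction, and the freed dimer enters the nucleus and binds short κB sites in DNA. Among the genes it switches on are several of its own inhibitors, above all Nfkbia and Tnfaip3, which close a negative feedback loop. In vessel walls the pathway is known for the induction of chemokines and of leukocyte adhesion molecules.

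Total counts ran from 13114273 to 15504240 per library. The 10 smooth muscle markers were all detected, with a summed level of 11007 to 69851 CPM (counts scaled by library size and a normalisation factor), and so were all 10 endothelial markers, at 555 to 1694 CPM. Tissue other than the vessel wall differed between libraries. The 20 genes of a sympathetic neuron list summed to 50.5 to 720 CPM in normal rats, to 1061 to 9919 CPM at 1 h and to 60.4, 68.3 and 9724 CPM in the 3 rats at 4 h. The 3 highest libraries were 1 h replicates 1 and 3 and 4 h replicate 3, from 9640 to 9919 CPM, while 1 h replicate 2, at 1061 CPM, was nearer to the highest normal rat, at 720 CPM. Values without the 3 highest libraries are given below. Other tissue differed too, with Schwann cell genes summing to 118 to 3932 CPM and adipocyte genes to 390 to 2702 CPM over all libraries. Smooth muscle markers were lowest in normal replicate 1, at 11007 CPM, and in 1 h replicate 3, at 12767 CPM. No fit adjusted for these lists. Each leukocyte list summed to less than the endothelial markers in every library. The neutrophil list, of which 2 of 10 genes could be tested, summed to 0.992 to 6.76 CPM, with only Elane at 0 in every library. The lymphocyte list summed to 1.49 to 44.2 CPM, with only Cd79a at 0 in every library. It was highest in 1 h replicate 3, at 44.2 CPM, and in normal replicate 1, at 30.5 CPM. The 9 macrophage genes summed to 42.9 to 243 CPM, with the 3 groups overlapping. In such bulk samples, fewer cells of a type and less RNA per cell cannot be told apart.

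The stretches of DNA before the genes are shown first because several of these genes are regarded as targets of the factor they encode or restrain. RefSeq (assembly GRCr8) gave a window around the start for 9 of the 10 genes, all but Relb, reaching 250 bases upstream and 50 downstream. The κB consensus decamer was searched on both strands, as the only motif, and was present in 7 of the 9 genes, namely Nfkbia, Nfkbie, Nfkbiz, Bcl3, Tnfaip3, Nfkb1 and Nfkb2. Of all 33469 windows of 300 bases, 4.18% held it. With 1 mismatch allowed, but none in the outer GG and CC of the decamer, the counts were 8 of 9 genes and 22.7% of windows. A match describes letters in the window and does not show that the factor binds there. The 10 matching letters are in capitals below within 30 bases, read 5′ to 3′ along the strand of the match. Positions count from the start of the gene and give the matching base farthest upstream along the gene. On the opposite strand this is the last capital letter.
Tnfaip3 from -170, same strand as the gene: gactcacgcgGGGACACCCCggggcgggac
Tnfaip3 from -67, opposite strand: ggatttccgaGGGACTTTCCagtcacgtga
Tnfaip3 from -55, opposite strand: ttcgccacagGGGGATTTCCgagggacttt
Bcl3 from -38, opposite strand: gccgggctgcGGGACTTCCCctgccgccga
Nfkb2 from -20, same strand as the gene: tggtattttcGGGACTTTCCtaagagcact
Nfkb1 from +4, same strand as the gene: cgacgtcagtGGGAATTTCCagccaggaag
Nfkbia from -31, opposite strand: gtcaggcgcgGGGAATTTCCaagccagtca
Nfkbie from -164, same strand as the gene: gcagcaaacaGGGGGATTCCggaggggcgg
Nfkbiz from -13, same strand as the gene: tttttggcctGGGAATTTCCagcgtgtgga

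Tnfaip3 held 3 matches and each of the other 6 genes held 1. Nfkbia, Nfkbiz and Nfkb1 carried the same decamer, on the opposite strand in Nfkbia and just after the start in Nfkb1. The windows of Nfkbid held no match, also with 1 mismatch between the outer GG and CC. That of Nfkbib held one only with such a mismatch. The 250 bases upstream of the start are printed whole, along the strand of the gene, for the 2 genes whose RNA changed in the tests below and for Nfkb1, whose larger change of both times was the smallest of the 10 genes, with any match in capitals. They lie at chr6:78597073-78597322 on the minus strand for Nfkbia, at chr11:58251471-58251720 on the plus strand for Nfkbiz and at chr2:226805463-226805712 on the minus strand for Nfkb1.
Nfkbia: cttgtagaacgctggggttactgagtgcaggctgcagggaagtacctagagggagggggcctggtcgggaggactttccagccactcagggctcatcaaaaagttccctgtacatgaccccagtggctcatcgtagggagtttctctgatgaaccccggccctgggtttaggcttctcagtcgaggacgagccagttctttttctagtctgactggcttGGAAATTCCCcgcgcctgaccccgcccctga
Nfkbiz: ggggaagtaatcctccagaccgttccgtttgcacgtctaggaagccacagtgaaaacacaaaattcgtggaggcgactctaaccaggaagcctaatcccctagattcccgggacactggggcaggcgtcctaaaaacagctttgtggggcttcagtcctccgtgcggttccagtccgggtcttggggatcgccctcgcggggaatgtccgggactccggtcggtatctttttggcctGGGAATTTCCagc
Nfkb1: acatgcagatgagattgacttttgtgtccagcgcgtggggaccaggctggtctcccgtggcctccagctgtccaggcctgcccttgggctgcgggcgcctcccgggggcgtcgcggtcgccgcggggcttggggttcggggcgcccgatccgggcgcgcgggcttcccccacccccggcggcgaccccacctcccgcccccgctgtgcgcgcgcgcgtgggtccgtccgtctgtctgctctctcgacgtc

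Of the 10 genes, 2 rose in ischemic artery at both times, the inhibitor gene Nfkbia and the nuclear IκB gene Nfkbiz. Changes were tested with edgeR and are given as the log2 fold change with its standard error (SE). A gene was called changed at an adjusted p under 0.05 over the 15482 genes tested and a fold change over 1.5. At 1 h against normal 0.0517% of all genes were called higher, and at 4 h against normal 0.0646%. With the 3 groups tested together 1 of the 10 genes was called, Nfkbiz, against 0.0388% of all genes. Both ischemic groups were set against the same 3 normal libraries, so the comparisons are not independent of each other. When only the groups compared were fitted, with fewer libraries to estimate the spread, neither gene was called at either time.

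**Figure D1:**
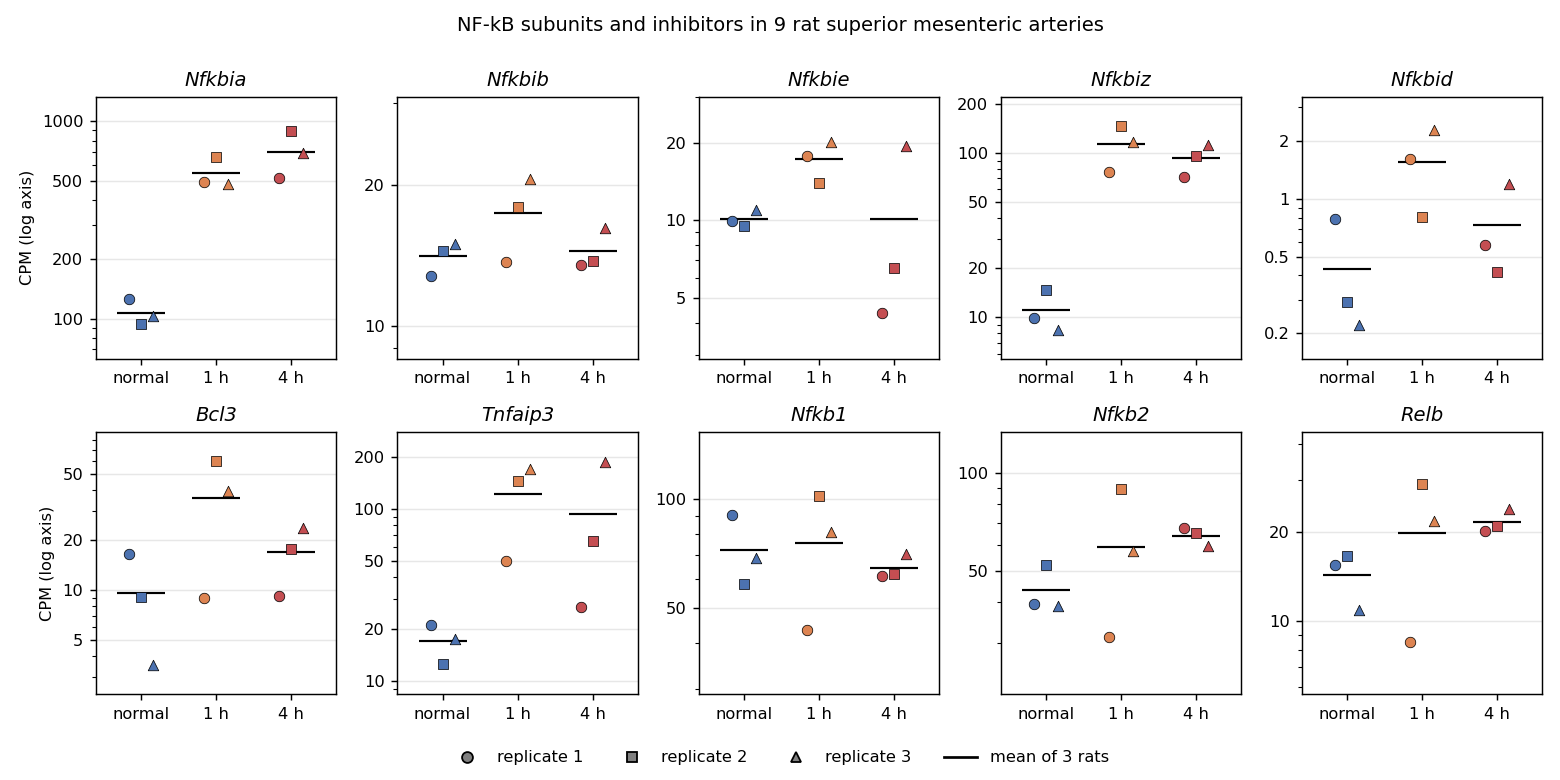
Level of each of the 10 genes in CPM (log axis, a scale of its own per panel) in 3 normal rats and in 3 rats each at 1 h and 4 h of ischemia; symbols give the replicate and the line the group mean. Nfkbia and Nfkbiz show narrow groups well above normal, from 483 CPM and from 71.5 CPM upward, whereas Tnfaip3 and Bcl3 spread widely within the ischemic groups.

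Nfkbia encodes IκBα, the inhibitor that is degraded and remade fastest. It stood at 125, 94.1 and 103 CPM in normal rats, at 495, 659 and 483 CPM at 1 h and at 514, 891 and 690 CPM at 4 h. Every ischemic rat was above every normal rat, and the 2 ischemic groups overlapped. The change was 2.35 (SE 0.28, 95% confidence interval 1.70 to 2.99, adjusted p = 0.0454) at 1 h and 2.70 (SE 0.28, 2.05 to 3.35, adjusted p = 0.0247) at 4 h, which is 5.08-fold and 6.5-fold. The fold changes were stable when each of the 9 libraries was left out in turn, at 2.19 to 2.47 and 2.49 to 2.85, but the calls were not. At 1 h the call was lost in all 9 of these fits (adjusted p from 0.0652 to 0.35). At 4 h it was kept in 3, without 1 h replicate 2 and without 4 h replicate 1 or 3.

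Nfkbib and Nfkbie encode IκBβ and IκBε, which hold the same dimers. Nfkbib was nearly level, at 12.8, 14.5 and 15 CPM in normal rats, 13.7, 18 and 20.6 CPM at 1 h and 13.5, 13.8 and 16.2 CPM at 4 h. Its change was 0.31 (SE 0.21, 95% confidence interval -0.17 to 0.78) at 1 h and 0.04 (SE 0.21, -0.43 to 0.52) at 4 h, so a rise beyond 0.78 on the log2 scale lay outside both intervals. Nfkbie was tight in normal rats, at 9.91, 9.49 and 11 CPM, and all 3 rats at 1 h were above them at 17.8, 14 and 20.1 CPM. At 4 h it was split, with 4.38 and 6.55 CPM below every normal rat and 19.5 CPM in replicate 3 above. Neither change passed the test, with 0.77 (SE 0.50, adjusted p = 0.409) at 1 h and 0.01 (SE 0.50, adjusted p = 0.998) at 4 h. Without 4 h replicate 3 the value at 4 h was -0.89.

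Nfkbiz encodes IκBζ, a nuclear protein that works with NF-κB on a second set of inflammatory genes. It stood at 9.97, 14.7 and 8.42 CPM in normal rats, at 76.9, 147 and 117 CPM at 1 h and at 71.5, 96.3 and 112 CPM at 4 h. By edgeR this was the largest change of the 10 genes at either time, and the lowest ischemic rat was far above the highest normal rat. The change was 3.36 (SE 0.33, adjusted p = 0.0193) at 1 h and 3.08 (SE 0.33, 95% confidence interval 2.32 to 3.84, adjusted p = 0.0247) at 4 h, or 10.3-fold and 8.46-fold. Leaving out each library in turn gave 3.14 to 3.62 and 2.92 to 3.36. The call was kept in 3 of these 9 fits at 1 h, without 1 h replicate 1 and without 4 h replicate 1 or 3, and in 3 at 4 h, without 1 h replicate 1 or 2 and without 4 h replicate 3.

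Bcl3 and Nfkbid encode the other nuclear IκB proteins, of which Bcl-3 pairs with p50 and p52. Bcl3 stood at 16.4, 9.05 and 3.55 CPM in normal rats, at 8.9, 59.8 and 39.3 CPM at 1 h and at 9.18, 17.8 and 23.6 CPM at 4 h. The groups overlapped at both times because 1 rat in each ischemic group sat within the normal range. Its change was 1.89 (SE 0.76, adjusted p = 0.288) at 1 h and 0.80 (SE 0.74, adjusted p = 0.674) at 4 h. Nfkbid was close to the detection limit, with 14, 4 and 3 counts in the normal libraries, compared with 24, 12 and 37 counts at 1 h and 7, 5 and 18 counts at 4 h. In CPM all 3 rats at 1 h, from 0.802 to 2.27, were above the normal rats, of which the highest was at 0.784, but by library size alone these groups overlapped. The change of 1.81 (SE 0.69, adjusted p = 0.28) did not pass the test.

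Tnfaip3 encodes A20, which strips and adds ubiquitin on the signalling proteins upstream of the kinase complex. It stood at 21.2, 12.6 and 17.4 CPM in normal rats, at 50, 145 and 170 CPM at 1 h and at 27, 65.3 and 186 CPM at 4 h. In CPM all 6 ischemic rats were above all normal rats, but within the 4 h group the highest rat was 6.9 times the lowest. By library size alone the separation was lost at 4 h. There, 4 h replicate 1 had 327 of 14870722 counts and normal replicate 1 had 379 of 15232646. In edgeR the change was 2.83 (SE 0.73, 95% confidence interval 1.16 to 4.50, adjusted p = 0.21) at 1 h and 2.44 (SE 0.72, 0.80 to 4.09, adjusted p = 0.223) at 4 h, and neither was called. DESeq2, the alternative count model, called Tnfaip3 at 1 h (2.85, adjusted p = 0.0028) and at 4 h (2.46, adjusted p = 0.0133) along with Nfkbia and Nfkbiz, where it called 2.43% and 1.6% of all genes higher. Without 4 h replicate 3 the edgeR value at 4 h was 1.43.

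Nfkb1, Nfkb2 and Relb encode the subunits themselves, p105/p50 of the classical dimer and p100/p52 with RelB of the alternative one. Nfkb1 stood at 90.4, 58.2 and 68.9 CPM in normal rats, at 43.5, 102 and 81 CPM at 1 h and at 61.2, 62.3 and 70.5 CPM at 4 h. The groups overlapped throughout, and the change was 0.06 (SE 0.30, 95% confidence interval -0.64 to 0.75) at 1 h and -0.16 (SE 0.30, -0.86 to 0.53) at 4 h. Nfkb2 stood at 39.4, 52.1 and 38.9 CPM in normal rats, at 31.3, 89 and 57.6 CPM at 1 h and at 67.5, 65.2 and 59.4 CPM at 4 h. Relb stood at 15.5, 16.6 and 10.9 CPM in normal rats, at 8.5, 29.2 and 21.8 CPM at 1 h and at 20.3, 21 and 24 CPM at 4 h. In both, the 4 h rats lay close together and just above the normal rats, while the 1 h rats straddled them. By library size alone the 4 h rats overlapped the normal rats in Relb. The change at 4 h was 0.56 (SE 0.34, -0.21 to 1.33, adjusted p = 0.536) for Nfkb2 and 0.61 (SE 0.40, -0.32 to 1.53, adjusted p = 0.569) for Relb, and neither passed the test.

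**Figure D2:**
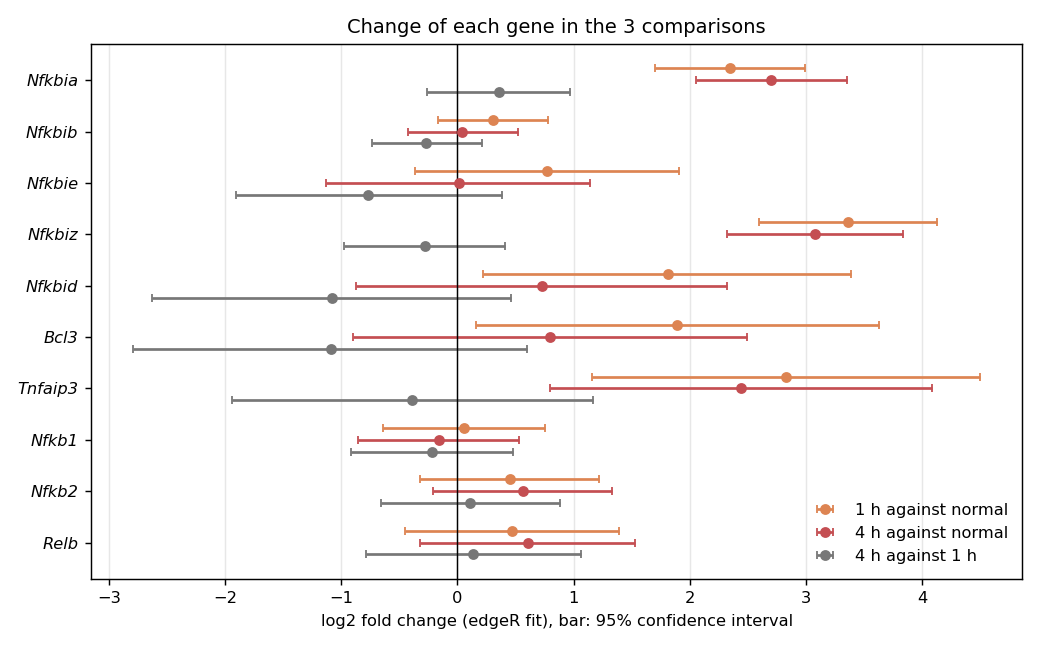
Log2 fold change of each gene with its 95% confidence interval from edgeR for 1 h against normal, 4 h against normal and 4 h against 1 h. Nfkbiz at 3.36 and 3.08 and Nfkbia at 2.35 and 2.70 lie farthest from 0 relative to their intervals, the intervals of Tnfaip3 are wide, and every interval for 4 h against 1 h includes 0.

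At 1 h, 5 of the 10 genes were higher at an unadjusted p under 0.05 (Nfkbia, Nfkbiz, Nfkbid, Bcl3 and Tnfaip3), a mark that 7.98% of all genes reached. This count was 3 without normal replicate 2, normal replicate 3 or 1 h replicate 3, with library size only and with a neuron score covariate. It was 4 with the replicate number as a block and 6, with Nfkbie added, with only the groups compared. Likewise 5 had all 3 rats above all normal rats in CPM (Nfkbia, Nfkbie, Nfkbiz, Nfkbid and Tnfaip3), against 12.8% of all genes. By library size alone Nfkbid left this count. The median change of the 10 genes was 1.29, beside -0.01 over all genes. At 4 h, 3 genes were higher at an unadjusted p under 0.05 (Nfkbia, Nfkbiz and Tnfaip3), against 5.07% of all genes. The count was 5, with Nfkb2 and Relb added, without 1 h replicate 1 and with only the groups compared. At 4 h, 5 had all rats above normal (Nfkbia, Nfkbiz, Tnfaip3, Nfkb2 and Relb), against 7.93%. By library size alone Tnfaip3 and Relb left this count, and the share of all genes on that scale is not given here. The median change was 0.67, beside 0.03 over all genes. By role, the median change at 1 h was 0.77 for the cytoplasmic inhibitors, 1.89 for the nuclear IκB genes and 0.45 for the subunits. At 4 h the medians were 0.04, 0.80 and 0.56. Each role holds 3 genes, so these are the values of Nfkbib, Bcl3 and Nfkb2, none of them called. Nfkbia, also a cytoplasmic inhibitor, was at 2.70 at 4 h.

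Between 1 h and 4 h none of the 10 genes was called by edgeR or by DESeq2, and none reached an unadjusted p under 0.05, a mark met by 2.58% of all genes in either direction. No gene of the whole table was called in this comparison (0% of all genes). The differences ran from -1.09 for Bcl3 to 0.36 for Nfkbia, with adjusted p from 0.856 to 0.917. The interval was -0.26 to 0.97 for Nfkbia, -0.98 to 0.41 for Nfkbiz and -1.94 to 1.17 for Tnfaip3. In this fit a change of 2-fold either way between the times was just outside the intervals of Nfkbia and Nfkbiz and inside that of Tnfaip3. Over the alternative fits the value ran from 0.10 to 0.51 for Nfkbia and from -0.80 to -0.05 for Nfkbiz. Intervals of those fits are not given here.

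The counts of these genes relative to Nfkb1 in the same library do not depend on the scaling of libraries. Normal rats had 1.38, 1.62 and 1.5 counts of Nfkbia per Nfkb1 count, rats at 1 h had 11.4, 6.49 and 5.97, and rats at 4 h had 8.41, 14.3 and 9.78. For Nfkbiz, normal rats had ratios of 0.11, 0.252 and 0.122, rats at 1 h had 1.77, 1.44 and 1.44, and rats at 4 h had 1.17, 1.55 and 1.59. The same groups had Tnfaip3 ratios of 0.235, 0.217 and 0.252, then 1.15, 1.43 and 2.09, then 0.442, 1.05 and 2.64. For these 3 genes every ischemic ratio lay above every normal ratio. The Nfkbiz ratio varied less between the 1 h rats than its level in CPM did. In CPM, replicate 1 was the lowest of the 1 h rats in both Nfkbiz (76.9) and Nfkb1 (43.5). Its ratios were the highest of the 1 h rats for Nfkbia and Nfkbiz.

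**Figure D3:**
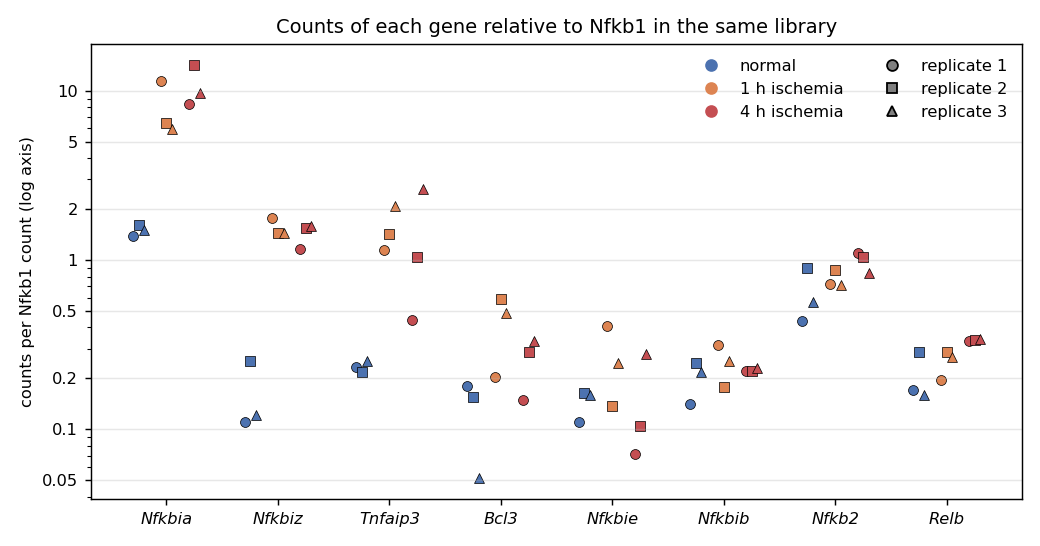
Counts of 8 genes per Nfkb1 count in the same library (log axis) for 3 normal rats and 3 rats each at 1 h and 4 h. Nfkbia, Nfkbiz and Tnfaip3 have every ischemic rat above every normal rat, with Nfkbia between 5.97 and 14.3 in ischemia and between 1.38 and 1.62 in normal artery.

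Many of the 10 genes ordered the ischemic rats alike. At 1 h, replicate 1 was the lowest of the 3 rats in 7 of the 10 genes, against 28.7% of all genes, and the highest in none, against 36.9%. Nfkbia was lowest in replicate 3 and Nfkbie and Nfkbid in replicate 2. At 4 h, replicate 1 was the lowest in 8 genes, against 36.6% of all genes, and replicate 3 the highest in 8, against 41.1%, whereas Nfkb2 ran the other way. In normal rats no replicate was the lowest or the highest in more than 5 of the 10 genes. The 4 h replicate 3 was also the only library of its group with a high neuron score, the mean log2 CPM of the 20 neuron genes, at 7.94 beside 0.08 and 0.42. At 1 h the scores were 7.98, 4.87 and 8.04, and in normal rats 4.46, -0.54 and 3.63.

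With the neuron score as a covariate in edgeR, Nfkbia changed by 2.35 at 1 h (adjusted p = 0.068) and 2.70 at 4 h (adjusted p = 0.0126), and Nfkbiz by 3.43 (adjusted p = 0.0387) and 3.10 (adjusted p = 0.0131). These were as large as without the covariate. Tnfaip3 moved to 2.07 and 2.09, Nfkbid at 1 h to 0.92 and Nfkbie to -0.07 and -0.34. Every 1 h library, from a score of 4.87 upward, scored above every normal library, of which the highest was at 4.46. The scores of these groups thus did not overlap, and the values at 1 h lean on the fitted slope of the score. Beyond these fits, the part of neuronal tissue in the spread between rats was not tested. Without the 3 libraries with the highest scores, which leaves a single rat at 1 h, none of the 10 genes was called, while the changes were 2.63 and 2.73 for Nfkbia and 3.75 and 2.95 for Nfkbiz. The same fit gave 3.10 and 1.46 for Tnfaip3, 0.48 and -0.87 for Nfkbie and, at 1 h, 0.89 for Nfkbid.

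**Figure D4:**
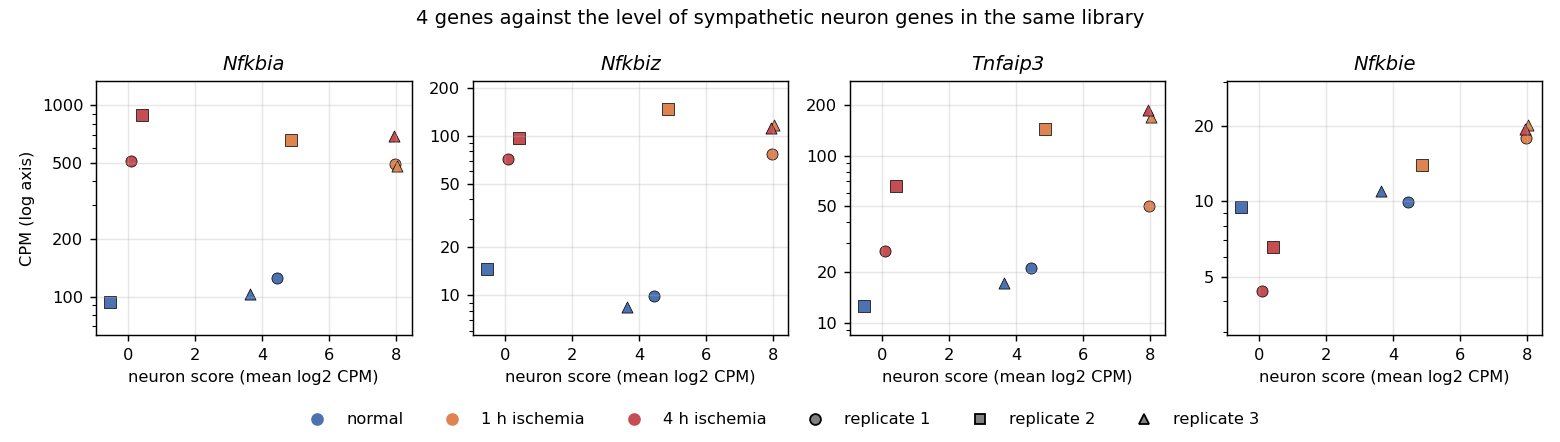
Level of Nfkbia, Nfkbiz, Tnfaip3 and Nfkbie in CPM (log axis) against the neuron score (mean log2 CPM of 20 sympathetic neuron genes) in each of the 9 libraries, coloured by group. The 4 h libraries with scores of 0.08 and 0.42 have Nfkbia at 514 and 891 CPM, whereas the 3 libraries with scores near 8 have the highest 3 values of Nfkbie.

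The other genes of the pathway were followed in lists by role, 122 genes in all, of which 102 could be tested. None was called at 1 h or at 4 h by edgeR with group as the only term (lowest adjusted p = 0.117 and 0.0614). Other edgeR settings called a few. The neuron score covariate called Cebpb higher at 1 h, and Cebpb, Csf3, Cxcl1 and Cxcl2 higher and Traf1 lower at 4 h. Fitting only the groups compared called Sele at 1 h, library size only called Cebpb at 4 h, and the fit without 4 h replicate 3 called Cxcl2 at 1 h. At an unadjusted p under 0.05, 32 were higher (31.4%, against 7.98% of all genes) and 8 lower (all genes 8.67%) at 1 h, and 21 were higher (20.6%, against 5.07%) and 9 lower (all genes 7.35%) at 4 h. The counts of lower genes were near the share over all genes. DESeq2 called 20 higher and 1 lower at 1 h, where it called 2.43% of all genes higher and 2.37% lower, and 15 higher and 3 lower at 4 h, where it called 1.6% and 2.48%. The shares of all genes at an unadjusted p under 0.05 just given apply to each list that follows. Their median change was 0.33 and 0.05.

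Of the other subunits, Rel, which encodes the inducible c-Rel, stood at 2.97, 2.19 and 2.51 CPM in normal rats, at 3.81, 13 and 12.9 CPM at 1 h and at 3.31, 6.88 and 12.2 CPM at 4 h. In CPM all ischemic rats were above all normal rats, but by library size alone 4 h replicate 1 fell below normal replicate 1. The change was 1.95 (SE 0.59, adjusted p = 0.232) at 1 h and 1.54 (SE 0.58, adjusted p = 0.335) at 4 h. Rela, the gene of the main activating subunit p65, changed by 0.05 and 0.34 (SE 0.30 each) with overlapping groups.

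Few ligands of the pathway could be tested, 5 of 11, since Tnf, Lta, Ltb, Il1a, Tnfsf11 and Cd40lg did not pass the filter. None of the 5 was higher at an unadjusted p under 0.05. Il33, a nuclear alarmin of vessel walls, was at 114 ± 26.5 CPM (SD, n = 3) in normal rats and at 55.3 ± 22.6 CPM at 4 h, a change of -1.05 (SE 0.32, adjusted p = 0.233). Il1b, the gene of interleukin-1β, had at most 2.07 CPM in any rat. Of 16 receptors, 3 were higher (Il1r1, Il1rap and Cd14) and 1 lower (Tlr4) at 1 h, and 1 higher (Il1rap) and 2 lower (Tlr4 and Tlr5) at 4 h, all at an unadjusted p under 0.05. Apart from the 3 higher at 1 h, these counts were near the shares of all genes, and with 16 genes each count is small. Il1rap, the accessory chain of the interleukin-1 receptor, changed by 1.10 (SE 0.37) and 0.86 (SE 0.37), and Tlr4, the endotoxin receptor, by -1.18 (SE 0.49) and -1.58 (SE 0.50).

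Among 31 adaptors and kinases, 6 were higher and 5 lower at 1 h, and 4 higher and 5 lower at 4 h, at an unadjusted p under 0.05 (all genes 7.98% and 8.67% at 1 h, 5.07% and 7.35% at 4 h). Map3k8, a kinase that forms a complex with p105, changed by 2.44 (SE 0.54, adjusted p = 0.182) at 1 h and 1.41 (SE 0.53) at 4 h. Irak2, a kinase below the interleukin-1 receptor, changed by 1.68 (SE 0.40) and 1.49 (SE 0.40), and Traf6, the ubiquitin ligase that follows it, by 0.96 (SE 0.31) and 1.22 (SE 0.31). Traf1 went the other way, from 5.1 ± 2.43 CPM to 1.34 ± 0.136 CPM at 1 h and 0.579 ± 0.299 CPM at 4 h (SD, n = 3), a change of -1.93 (SE 0.51, adjusted p = 0.21) and -3.12 (SE 0.54, adjusted p = 0.0721). Among 20 further negative regulators, 2 were higher and 2 lower at 1 h, and 2 higher and 1 lower at 4 h, which is near the shares of all genes. Zc3h12a, which encodes the RNase Regnase-1, changed by 1.99 (SE 0.41, adjusted p = 0.159) and 1.65 (SE 0.40, adjusted p = 0.167), and Sigirr, an inhibitory receptor, by -0.73 (SE 0.31) and -1.17 (SE 0.31).

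Of 36 textbook target genes of NF-κB, 28 could be tested, and 20 were higher at 1 h and 13 at 4 h at an unadjusted p under 0.05, against 7.98% and 5.07% of all genes, with none lower. Their median change was 1.99 and 1.60, the largest of the pathway lists. All ischemic rats were above all normal rats in 19 and 15 of them, against 12.8% and 7.93% of all genes. DESeq2 called 15 and 12 higher, against 2.43% and 1.6% of all genes. Without 4 h replicate 3, 9 were higher at 4 h and the median was 0.70, below the 0.75 of the other subunits. Cebpb, the gene of an inflammatory transcription factor, went from 13.7, 32 and 32.9 CPM to 223, 281 and 111 CPM at 1 h and to 335, 388 and 193 CPM at 4 h, with adjusted p = 0.117 and adjusted p = 0.0614. Cxcl1, a neutrophil chemokine, went from 1.18, 1.02 and 4.58 CPM to 118, 445 and 605 CPM at 1 h and to 73, 204 and 629 CPM at 4 h. Its relative Cxcl2 had 1 count in all normal libraries together and 8.96 to 22.7 CPM at 1 h, and how reads were split between these near copies is not known. Csf3, which encodes the granulocyte growth factor G-CSF, had 7 counts over the normal rats and 6.35 to 61.6 CPM at 1 h. In Cxcl1, Cxcl2 and Csf3, 4 h replicate 3 was the highest of its group, as it was in Tnfaip3, whereas it was the lowest in Cebpb.

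**Figure D5:**
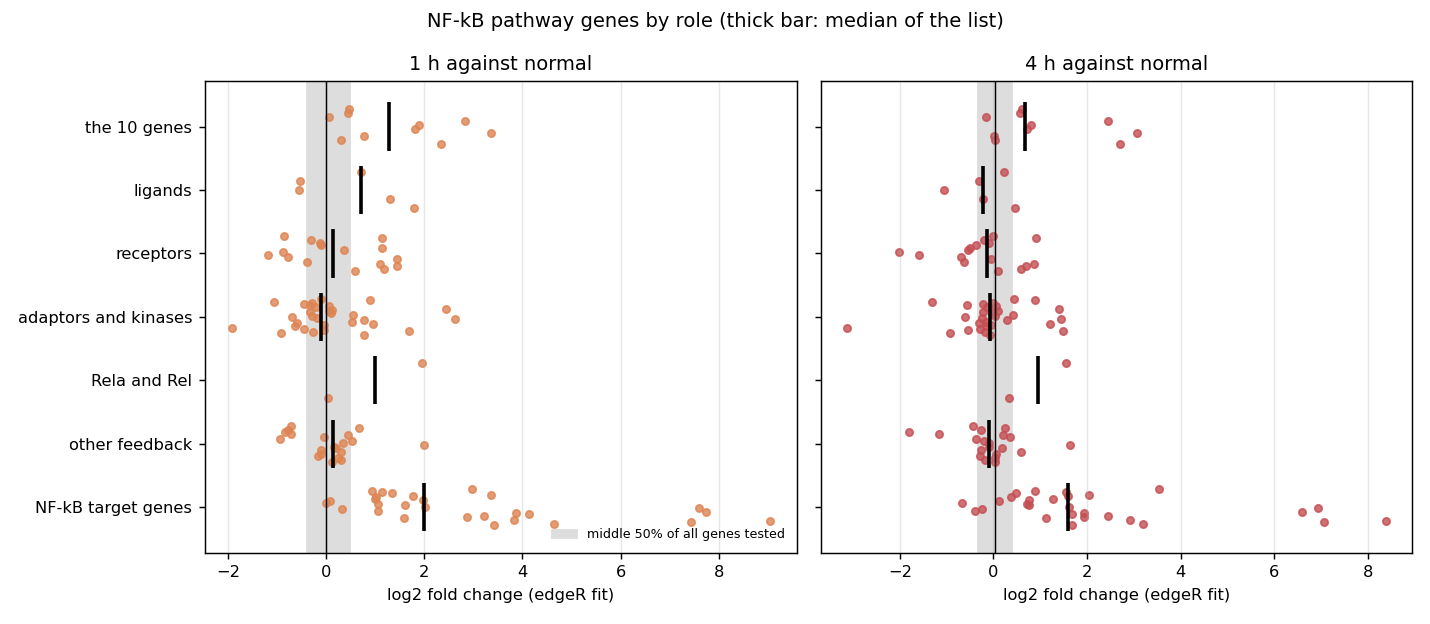
Log2 fold change of each tested gene by list (one dot a gene, thick bar the median of the list) at 1 h and at 4 h against normal; the grey band holds the middle 50% of all genes tested. Target genes have a median of 1.99 at 1 h and 1.60 at 4 h, whereas the adaptors and kinases have medians of -0.10 and -0.07.

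The genes whose pattern over the 9 libraries was nearest to that of Nfkbia and Nfkbiz were found by the root mean square difference of log2 CPM, each gene centred on its mean. Symbols starting with LOC, RGD, AABR or AC and a digit were left out of the ranking. Nearest to Nfkbia were Pnmt (0.30), PVR (0.36), Csrnp1 (0.40), Nfil3 (0.42) and Ddit4 (0.42). Nearest to Nfkbiz were Rnf19b (0.37), Csrnp1 (0.41), Adamts1 (0.51), Nfil3 (0.52) and PVR (0.52), followed by Nfkbia (0.53). Csrnp1, Nfil3 and PVR were thus in both lists, and Nfkbiz ranked 13 for Nfkbia. Tnfaip3 was farther off, at rank 141 for Nfkbia (0.83) and rank 43 for Nfkbiz (0.80).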

How the data were processed

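SMA RNA from 9 rats was sequenced on an Illumina instrument per the labels, and the 3 rats of a group were taken as separate animals from the series design, although the study's methods can be read as 3 individuals sampled in all conditions. The authors deposited raw counts per gene symbol, with 13156 of 37203 symbols at 0 throughout. The submitters' processing notes name HISAT2. The counting program, strand setting, genome build and annotation are not given in the sources used here. The study's methods describe Agilent microarrays for these samples, whereas the deposited values are whole-number counts and were analysed as counts.

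Genes were filtered with filterByExpr, scaled by TMM (factors from 0.814 to 1.22) and tested with the quasi-likelihood test of edgeR 4.0.16 (limma 3.58.1, R 4.3.3) on all 9 libraries with group as the only term, with Benjamini-Hochberg adjustment over 15482 genes. The script was tested on simulated data. Log2 CPM used a prior count of 2. The common biological coefficient of variation was 51.6%, and mitochondrial genes took 9.37% to 29.8% of counts. No pair of libraries agreed within sampling noise.

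The members and lists were chosen with earlier results of these data known. Each member is named, and up to 4 genes per list with the smallest p over the 3 groups. Alternatives were RLE factors, library size only, no filter, DESeq2 1.42.0, only the groups compared, a replicate block, a neuron score covariate, no mitochondrial genes and leaving out each library. Leaving out the 3 libraries with the highest neuron score was chosen after seeing the data. Protein sequences were not used here.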

Additional observations from a re-analysis of the deposited data

How the results depend on the processing

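With 2 of the 10 genes called at 1 h and 2 at 4 h, RLE factors, no filter and the removal of mitochondrial genes kept both counts, and DESeq2 called 3 and 3. Library size only gave 0 and 1, only the groups compared gave 0 and 0, the neuron score covariate 1 and 2, and leaving out the 3 libraries with the highest score 0 and 0. Leaving out each library gave 0 to 1 genes at 1 h and 0 to 2 at 4 h, and 0 for 4 h against 1 h throughout. With the 3 groups together (1 gene), RLE factors, library size only and leaving out the 3 libraries gave 0, no filter and the covariate 2, DESeq2 3, and leaving out each library 0 to 1. The cause of these shifts was not tested, except that fewer samples were fitted where libraries or groups were left out. Replicate numbers were shared by the groups, but only 4 of 9 same-numbered pairs had correlated deviations over 0.1 (range -0.651 to 0.66), so they were not taken as pairs. The replicate block called 1, 1 and 0 genes for 1 h, 4 h and the 3 groups and gave -0.22 for Nfkbie at 4 h; of the pathway genes it called Csf3 and Cxcl1 at 1 h and Cxcl1 at 4 h. Signs turned only for changes that passed no test. Library size only moved the median of all genes to -0.149 at 4 h against normal and to -0.239 at 4 h against 1 h, and gave -0.11 for Nfkbib and -0.04 for Nfkbie at 4 h against normal, both above that median, and -0.09 for Nfkb2 and -0.06 for Relb at 4 h against 1 h, again above it. The covariate gave -0.07 and -0.34 for Nfkbie at 1 h and 4 h, and 0.03 for Tnfaip3 and -0.14 for Nfkb2 at 4 h against 1 h. Without the 3 libraries, Nfkbib was at -0.03 and Nfkbie at -0.87 at 4 h, and Nfkb2 at -0.42 and Relb at -0.49 at 4 h against 1 h. Leaving out each library gave -0.04 to 0.09 for Nfkbib, -0.89 to 0.35 for Nfkbie and -0.28 to 0.02 for Nfkb1 at 4 h, -0.22 to 0.33 for Nfkb1 at 1 h, and at 4 h against 1 h -0.50 to 0.06 for Nfkb1, -0.19 to 0.53 for Nfkb2, -0.23 to 0.53 for Relb and -1.40 to 0.02 for Tnfaip3. At 3 to 37 counts per library, changes in Nfkbid were not resolved at this depth.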
